A study of Schizosaccharomyces pombe with 4 samples.

Results

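The long coding genes of fission yeast, Schizosaccharomyces pombe, were followed from start codon to stop codon in a genome-wide map of the kinase Cdk11. The set holds the nuclear coding genes of the ASM294v3 annotation whose coding span is at least 3500 bp, which is 209 of 5113 nuclear coding genes. Another 47 such genes lie on chromosome I from 3.7 Mb onward, where the probe coordinates did not match this assembly, and were left out. Array probes were assigned to a gene when their centre lay inside its span, from start codon to stop codon with introns, and were ordered by their distance from both ends. The rule used length and position, and no measured value.

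The data are 4 two-colour Agilent tiling arrays of 1 group. They were hybridised with DNA from otherwise wild-type cells carrying HA-tagged Cdk11, which were grown at 32 °C in YES, a rich medium, to mid-log phase. Chromatin was fixed for 10 min in 3% formaldehyde, sheared, precipitated with an antibody to the HA tag and amplified by PCR. Replicates 1 and 3 are duplicate arrays of the first immunoprecipitation, replicates 2 and 4 those of the second, which gives n = 2. There was no untagged strain, mock precipitation or dye swap among the samples analysed here. A signal that any chromatin gives with this antibody therefore cannot be told apart from Cdk11 binding.

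Cdk11 belongs to the cyclin-dependent kinases, works with an L-type cyclin and phosphorylates proteins of the transcription machinery. In fission yeast its known substrates include subunits of Mediator, the coactivator complex that bridges transcription factors and RNA polymerase II. Mediator is best known at the regulatory region ahead of a gene, whereas the polymerase and its elongation factors are found over the whole transcribed body. A long gene carries enough probes to compare its start, middle and end, which short genes do not.

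Every value is log2 of Cy3 over Cy5, centred on the median nuclear probe of its array, so that 0 is the median probe and not an absence of the protein. The labels place the immunoprecipitate in Cy3 and the input in Cy5, but the authors' deposited table runs as log2 of Cy5 over Cy3. Which sign stands for immunoprecipitated DNA was therefore not settled, and results are given as higher in Cy3 (above 0) or higher in Cy5 (below 0). Values of the deposited table are given beside the centred ratios with their sign turned to Cy3 over Cy5. That table followed a loess curve, which removes the dependence of the ratio on spot brightness, with r of at least 0.9966 against a loess fit of these arrays. The centred ratios kept that dependence, with r of -0.65, -0.48, -0.56 and -0.63 between ratio and brightness on replicates 1 to 4. Over all probes the arrays correlated at 0.17 to 0.28. The pairs from 1 immunoprecipitation, at 0.21 and 0.27, stood no higher than the others.

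Of the 209 long genes, 199 were measured with 5 to 54 probes each and a median of 15. The 10 without a probe were 9 open reading frames of Tf2, a retrotransposon present in many near-identical copies, and tlh2, a helicase gene of the chromosome ends that also has close copies. The span was 3510 to 15005 bp with a median of 4203 bp, 79 genes held an intron, and 32 of the 3357 probes with a value in both immunoprecipitations lay in one. The median GC content was 38.0% in long genes and 38.9% in shorter genes. The upstream neighbour was divergent for 111 and in tandem for 98, and the downstream neighbour was convergent for 99 and in tandem for 108. Of the probes in long genes, 10.0, 2.10, 3.20 and 0.118% were removed from replicates 1 to 4 as poor spots.

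The 2 long genes that passed the test over their whole span were ura1, with a value of -0.93, and bgs4, with -0.70, both higher in Cy5. Their coding ends are printed because all positions below are counted from them. They were read from RefSeq's ASM294v3 on the coding strand, with the start codon or the stop codon in capitals. The first 60 coding bases of ura1 lie at chrI:745975-746034 and the last 60 at chrI:739300-739359, and those of bgs4 at chrIII:2255087-2255146 and chrIII:2249279-2249338, all on the minus strand. In this assembly the span began with ATG in 209 of 209 long genes and ended with a stop codon in 208.
ura1, start: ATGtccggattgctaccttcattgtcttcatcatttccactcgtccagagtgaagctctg
ura1, stop: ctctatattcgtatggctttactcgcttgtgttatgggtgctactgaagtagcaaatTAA
bgs4, start: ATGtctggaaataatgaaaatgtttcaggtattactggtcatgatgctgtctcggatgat
bgs4, stop: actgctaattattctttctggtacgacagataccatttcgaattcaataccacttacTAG

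Along the body of long genes the median over all their probes was nearly flat. This does not describe single genes, whose differences along the body are given below. The median probe value was -0.03 in the first 1000 bp, -0.01 in the middle and -0.02 in the last 1000 bp, over 686, 1955 and 716 probes. The 7 bins of 250 bp next to the start codon ranged from -0.10 to 0.06, and the 7 next to the stop codon from -0.06 to 0.00. The single arrays differed from each other by more than the zones did: the middle had a median of 0.16, 0.04, 0.02 and -0.09 on replicates 1 to 4. The deposited table gave these zones medians of 0.09, 0.14 and 0.10, so the whole body lay above 0 there, with similar medians at both ends. Its bins along the body ran from 0.03 to 0.20, with the bin next to the stop codon at 0.03. Brightness was 0.14, 0.17 and 0.14 in these zones, in log2 units above the median probe.

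The medians of the flanks differed from those of the body, in directions that changed with the scaling or the immunoprecipitation. These differences were not tested. Flank values use only probes that lie in no coding span. Over the 500 bp before the start codon, where promoters lie, the median was 0.10 over 283 probes, and it was 0.10, 0.14, 0.11 and 0.21 on replicates 1 to 4. Set against the first 1000 bp of the same gene, the upstream flank was higher in Cy3 by a median of 0.12 over 179 genes. The difference was 0.04 by the arrays of immunoprecipitation 1 and 0.18 by those of immunoprecipitation 2. By the deposited table this difference was -0.12 and 112 of 179 genes were below 0, so its direction turned with the scaling. Over the 500 bp after the stop codon the median was -0.09 over 244 probes, with -0.34, -0.04, -0.14 and 0.06 on replicates 1 to 4. Replicates 1 and 3, of the first immunoprecipitation, were the lowest there, and replicate 4 was above 0. Minus the last 1000 bp of the same gene, the downstream flank was -0.18 by the arrays of immunoprecipitation 1 and 0.10 by those of immunoprecipitation 2, with 87 of 160 genes below 0 on their mean. The deposited table gave -0.46 and -0.26 for the same difference and 126 of 160 genes below 0. Spots in both flanks were dimmer than in the body, at -0.26 before the start and -0.23 after the stop, and the part of brightness in these differences was not tested.

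The downstream flank had a lower median where the next gene converged. Between convergent genes the 500 bp after the stop codon had a median of -0.23 over 101 probes, with -0.51, -0.11, -0.43 and -0.11 on replicates 1 to 4. Where the next gene ran in tandem it was -0.02 over 143 probes, with -0.12, -0.04, 0.08 and 0.13. Convergent flanks had lower medians than tandem flanks on 4 of 4 arrays, a difference that was not tested. The last 1000 bp of the genes had -0.07 beside convergent and 0.02 beside tandem neighbours. Set against the last 1000 bp of the same gene, the median difference on replicates 1 to 4 was -0.23, -0.04, -0.11 and 0.13 for convergent flanks, and -0.23, -0.13, -0.12 and 0.28 for tandem flanks. Against their own gene, the medians of single arrays were therefore clearly lower for convergent than for tandem flanks only on replicate 4. On the mean of both immunoprecipitations the difference from the own gene was -0.11 for convergent and -0.05 for tandem flanks. By the deposited table it was -0.46 and -0.30, and this was not tested either. For the flanks alone the deposited table gave -0.33 and -0.14. Genes of at least 2000 bp and under 3500 bp had -0.16 beside convergent and 0.06 beside tandem neighbours. Brightness was -0.21 and -0.23 in the 2 kinds of flank of long genes.

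**Figure D1:**
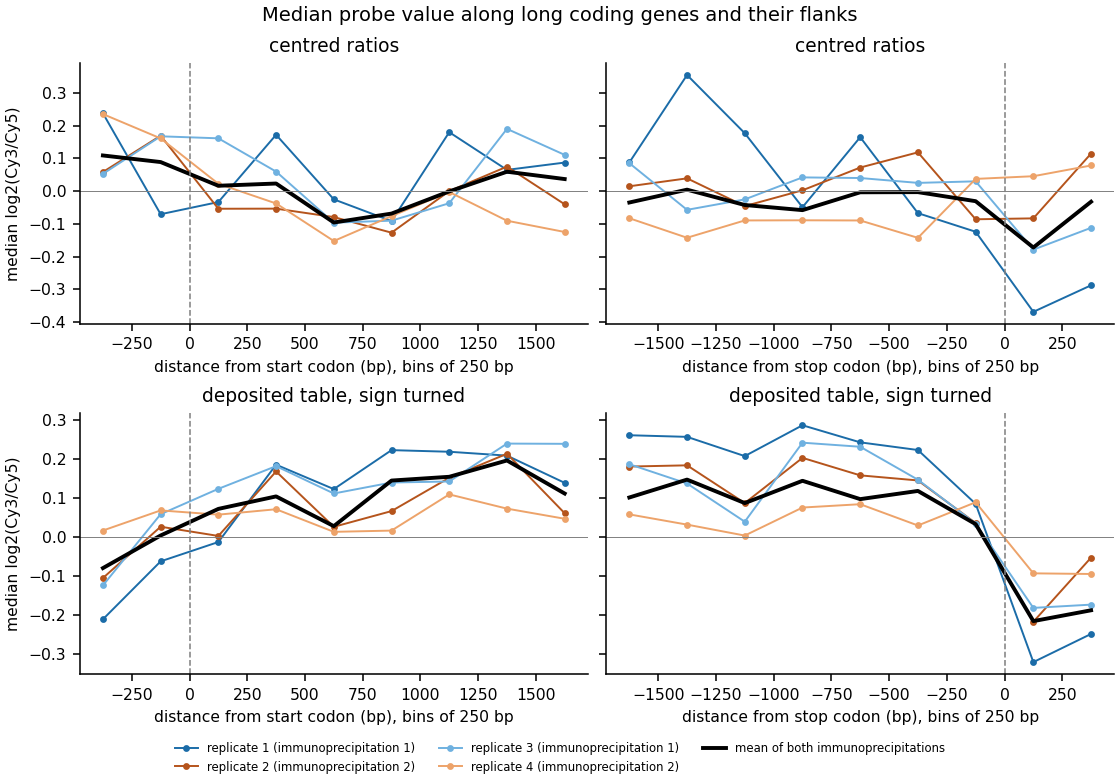
Median log2(Cy3/Cy5) of the probes of long genes in bins of 250 bp, by distance from the start codon (left) and from the stop codon (right), for centred ratios (top) and for the deposited table with its sign turned (bottom). Coloured lines are the 4 arrays and the black line is the median of probe means over both immunoprecipitations. Inside the span the black line stays between -0.10 and 0.06 in the top panels, and after the stop codon it drops to -0.17 in the top and -0.22 in the bottom panel.

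Over the whole span, the mean over the probes of a gene was tested against 0 with limma across all 3848 coding genes with at least 2 probes, with Benjamini-Hochberg adjustment and a threshold of 0.05. Of the 199 long genes, 0 were higher in Cy3, where the background over all coding genes was 0.494%, and 2 were higher in Cy5, where it was 4.39%. The 2 genes are 1.01% of the long genes, and the difference from the background was not tested. At an unadjusted p under 0.05 the limma counts were 0 and 9 long genes, or 0.0% and 4.52%, where all coding genes gave 4.89% and 11.3%. With 2 immunoprecipitations no permutation test can give a p under 0.5.

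ura1 encodes the enzyme that carries out the first steps of pyrimidine synthesis, carbamoyl phosphate synthase joined to aspartate carbamoyltransferase. Its whole-span value was -1.07, -0.82, -1.08 and -0.75 on replicates 1 to 4, the lowest mean of all measured long genes at -0.93 ± 0.21 (SD, n = 2), with an adjusted p of 0.00733 in limma. It was below 0 on 4 of 4 arrays. The deposited table gave 0.17, -0.08, -0.11 and -0.25, a mean of -0.07 with an adjusted p of 0.744. ura1 was bright, at 0.91 above the median probe, and its value was -0.09 with loess and -0.11 with loess plus GC correction, which ended its call. The call also ended with normexp, at -1.05 with an adjusted p of 0.0929 in limma, and without replicate 3, at -0.93 with 0.0755, where the value was about as large as that above.

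bgs4 encodes a catalytic subunit of the β-glucan synthase that builds the cell wall and the secondary septum. Its values were -1.07, -0.62, -0.50 and -0.53, a mean of -0.70 ± 0.18 (SD, n = 2) with an adjusted p of 0.0468 in limma. Replicate 1 was the lowest, and all 4 arrays were below 0. The deposited table gave a mean of -0.08 with an adjusted p of 0.703. The call of bgs4 ended without any 1 of the 4 arrays, with values of -0.83 to -0.56 and adjusted p from limma between 0.0852 and 0.174, and brightness was 0.67.

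The next genes in order did not pass, though several lay below 0 on all arrays. bfr1, an efflux pump for brefeldin A in the plasma membrane, had -0.61, -0.49, -0.63 and -0.60 on replicates 1 to 4. glt1, glutamate synthase, had -0.77, -0.45, -0.40 and -0.59. ags1, the α-glucan synthase of the cell wall, had -0.39, -0.63, -0.60 and -0.60. bgs1, the synthase of the primary septum, had -0.75, -0.39, -0.49 and -0.44. The adjusted p of these 4 genes ran from 0.11 to 0.175 in limma, and all 4 passed, at 0.00611 to 0.0215, in a fit over the genes with at least 10 probes. In that fit 6 of 195 long genes passed as higher in Cy5, and 17 of all 459 genes. The rest of the 12 lowest were sir1 (sulfite reductase), cts2 (a chitinase), fas2 (fatty acid synthase), nuc1 (the large subunit of RNA polymerase I), cut6 (acetyl-CoA carboxylase) and rpb1 (the large subunit of RNA polymerase II), with means of -0.44 to -0.37. These 12 genes were bright spots, at 0.41 to 0.92. Their means in the deposited table ran from -0.08 to 0.44, and cts2 was at 0.44 there.

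At the other end, the highest mean was 0.36, so the spread above 0 was less than that below it. prp16, a helicase of the spliceosome, had 1.03, 0.36, 0.11 and 0.09 on replicates 1 to 4, with most of its mean from replicate 1. dhx29, an RNA helicase, had 0.60, 0.54, 0.24 and 0.15. pom152, a membrane protein of the nuclear pore, had 0.18, 0.26, 0.79 and 0.14, with replicate 3 far above the rest. The 12 highest also held gpt1 (a glucosyltransferase for glycoproteins), myo52 (a myosin that carries cargo), SPBC609.01 (a Dis3-like exonuclease), cdc7 (a kinase of the septation network), cut14 (condensin), knd1 (a regulator of cullin ligases), abo2 (a histone chaperone), spc7 (a kinetochore protein) and psm3 (cohesin). Their means were 0.25 to 0.33 and limma's adjusted p of the 12 was 0.379 at the lowest. Only gpt1 and psm3 among the 12 had an array below 0. The same 12 lay, by the deposited table, between 0.02 and 0.42.

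**Figure D2:**
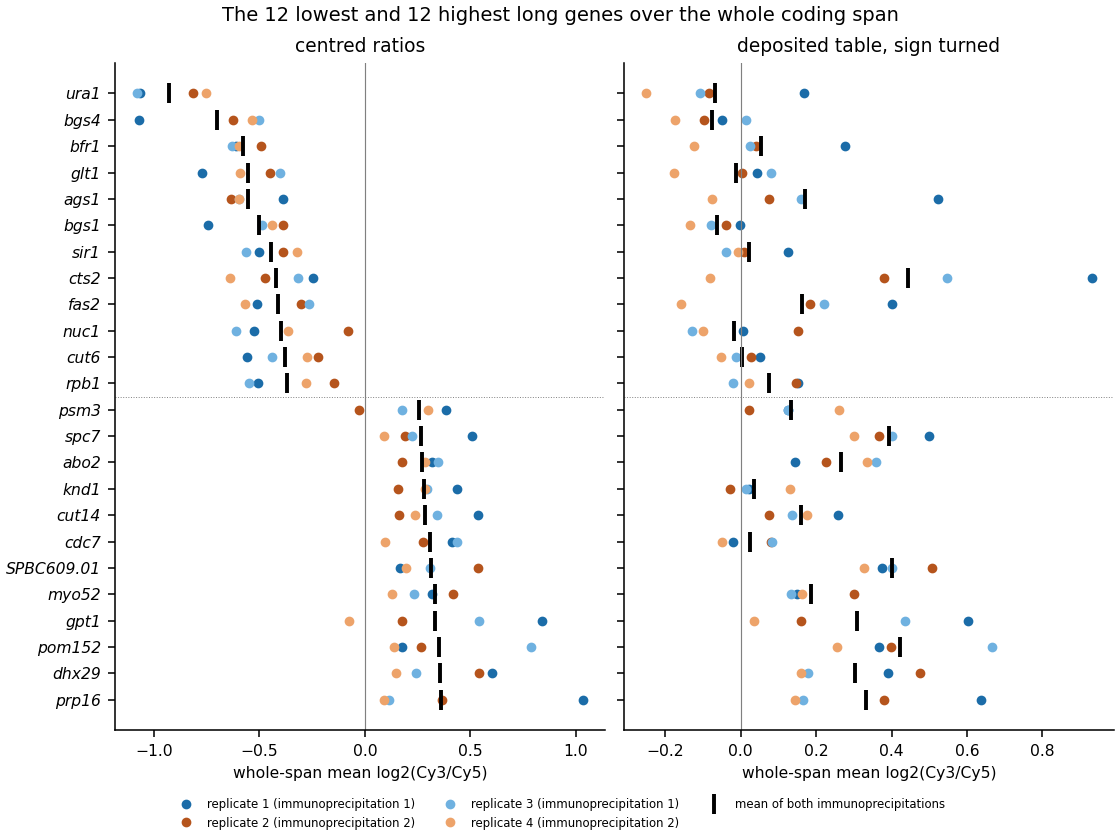
Whole-span mean log2(Cy3/Cy5) of the 12 lowest and 12 highest long genes with at least 8 probes, for centred ratios (left) and for the deposited table with its sign turned (right). Points are the 4 arrays and bars the mean of both immunoprecipitations. ura1 lies at -0.93 and bgs4 at -0.70 on the left, against -0.07 and -0.08 on the right.

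Over all 199 measured genes, 28 were below 0 on all 4 arrays and 22 above 0 on all 4. Across genes, which are not independent replicates, the whole-span values of the first and the second immunoprecipitation correlated at r = 0.51, and at 0.69 in the deposited table. Both kinds of value correlated at only 0.28 with each other. The correlation of the whole-span value with brightness was -0.64 for centred ratios and 0.54 for the deposited table, and that with GC content was -0.47 and 0.28. Across long genes, greater brightness thus went with lower values in one scaling and with higher values in the other. This did not hold for every bright gene. The enzymes of lipid, amino acid and nucleotide synthesis had a median brightness of 0.43. Their deposited median was 0.02, below the 0.10 over all long genes. tlh1, very bright and high in the deposited table, is among the genes correlated here, and its part in these r was not tested. Between value and log2 span r was -0.03.

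Grouped by function, enzymes that make lipids, amino acids and nucleotides had the lowest median in the centred ratios. Of 7 measured, 6 were below 0 and 1 (ura1) passed, with a median of -0.38 against 0.00 over all long genes. Below ura1 and glt1 in size came fas2 at -0.41, cut6 at -0.38, ade3 (an enzyme of purine synthesis) at -0.28 and pyr1 (pyruvate carboxylase) at -0.25. The exception was sib1, the ferrichrome synthetase, at 0.07. Their median brightness was 0.43 and the deposited table gave them a median of 0.02, below the 0.10 over all long genes, whereas cytoskeleton genes and chromatin remodellers lay lower there, both at -0.01.

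The large subunits of the RNA polymerases followed with a median of -0.23, 4 of 5 below 0 and 0 passed in limma. nuc1 had -0.53, -0.08, -0.61 and -0.36 on replicates 1 to 4. rpb1 had -0.51, -0.15, -0.55 and -0.28. In both genes replicates 1 and 3 were the lowest, so the first immunoprecipitation lay further below 0 than the second. The others were rpb2 (RNA polymerase II) at -0.23, rpa2 (RNA polymerase I) at -0.20 and rpc1 (RNA polymerase III) at 0.02. The 5 had a median of 0.09 by the deposited table, and their median brightness was 0.44.

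The glucan synthases fell into separate ranges. bgs4, ags1 and bgs1, which act in vegetative cells, had -0.70, -0.55 and -0.50. bgs2, mok12, mok13 and mok14, known for the spore wall, lay between 0.03 and 0.06. In the deposited table bgs4 and bgs1 were at -0.08 and -0.06 and ags1 at 0.17, while the spore wall synthases had 0.20 to 0.24. The order by group was thus the same in both scalings, but in the deposited table ags1 lay nearer to the spore wall synthases than to bgs4 and bgs1. With loess ags1 was at 0.16, bgs4 at -0.10 and bgs1 at -0.07. bgs4, ags1 and bgs1 were among the bright genes named above, while the median brightness of the list was 0.22. The part of brightness in this split was not tested.

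Of the lists for transcription and chromatin, none had a called member. The list of Mediator, SAGA and TFIID genes had a median of 0.09 over 5 genes and 0 passed. med13, a subunit of the Mediator kinase module, had 0.18, and tra1 and tra2, the large scaffold proteins of the SAGA and NuA4 acetyltransferase complexes, had 0.09 and 0.11. mot1, which removes the TATA-binding protein from DNA, was the lowest at -0.36. The 4 chromatin remodellers had a median of -0.04 and ran from -0.19 for mit1 to 0.20 for hrp1. The 5 splicing and mRNA end factors had a median of -0.09 and ran from -0.28 for prp22 to 0.36 for prp16.

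The other lists had medians between -0.14 and 0.13 and 0 genes past the test. Chromosome structure and replication held 14 genes with a median of 0.06, from psm1 (cohesin) at -0.24 to cut14 at 0.29. Signalling kinases held 14 with a median of 0.03, from cek1 at -0.30 to tel1, the ATM-like checkpoint kinase, at 0.22. Transporters held 10 with a median of -0.04, where bfr1 at -0.58 was the lowest and mam1, exporter of a mating pheromone, the highest at 0.14. Ribosome biogenesis held 6 with a median of -0.07, from utp10 at -0.31 to utp20 at 0.09. Cytoskeleton genes held 9 with a median of -0.08, from for3 at -0.30 to myo52 at 0.33. Vesicle traffic held 9 with a median of -0.11, from chc1, clathrin, at -0.30 to vps1301 at 0.22. Nuclear pore genes held 6 with a median of 0.01, from nup189 at -0.23 to nup132 at 0.17. The silencing pair rdp1 and dcr1 had 0.02 and 0.23, the ubiquitin pair ubr1 and ubp15 had 0.07 and 0.11, and the cell surface pair gsf2 and pfl5 had -0.17 and -0.10.

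**Figure D3:**
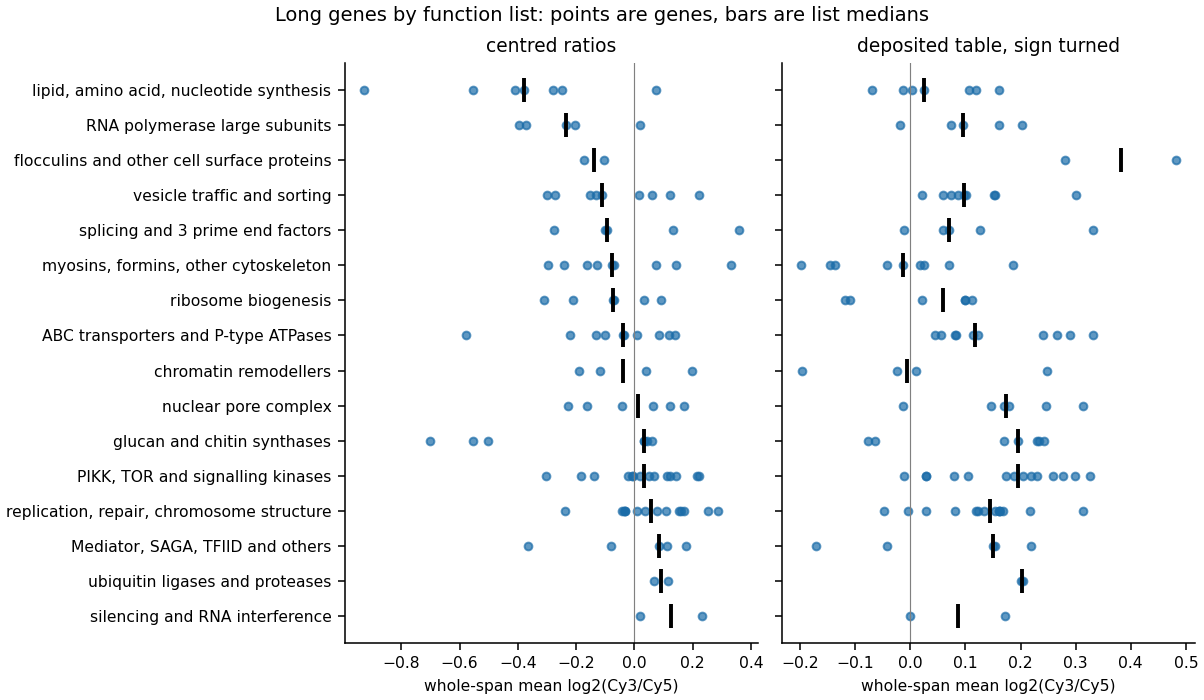
Whole-span mean log2(Cy3/Cy5) of long genes by function list, for centred ratios (left) and the deposited table with its sign turned (right). Points are genes and bars list medians over both immunoprecipitations. The lipid, amino acid and nucleotide enzymes lie at a median of -0.38 on the left and 0.02 on the right.

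Single probes gave few calls. Of the 3357 probes in long genes, 1 was higher in Cy3 in limma, where the background over all 41171 probes was 0.216%, and 24 were higher in Cy5, where it was 2.3%. These 25 probes lay in 16 genes, and 3 genes held more than 1: ura1 with 7, sir1 with 3 and rpb1 with 2. Not all were low in both immunoprecipitations. The called probe of mit1 had -3.10 in immunoprecipitation 1, from replicate 1 alone, and 0.46 in immunoprecipitation 2. That of nup189 had -2.72, also from replicate 1 alone, and 0.01. By zone the probes higher in Cy5 were 4 of 686 in the first 1000 bp, 13 of 1955 in the middle and 7 of 716 in the last 1000 bp, or 0.583, 0.665 and 0.978%. The probe higher in Cy3 lay 753 bp after the start codon of myo52, with a mean of 1.48. Without a test, 102 probes of long genes lay at least 1.5-fold above the median in both immunoprecipitations and 166 at least 1.5-fold below it, or 3.04% and 4.94%, with backgrounds of 4.17% and 6.68% over all probes. Another 98 were 1.5-fold off in opposite directions. Values of the deposited table passed as higher in Cy3 for 275 of 3378 probes and as higher in Cy5 for 107, against backgrounds of 5.28% and 7.67%.

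In ura1 low centred ratios were found in all 3 zones of the body. Of its 24 probes, 20 were below 0 in both immunoprecipitations and 0 above 0 in both, and the first 1000 bp, the middle and the last 1000 bp averaged -0.95, -0.98 and -0.74. The lowest of its probes, 1126.5 bp from the start, had -2.62, -2.05, -1.30 and -1.26 on replicates 1 to 4. bgs4 was similar, with 20 of 23 probes below 0 in both, 14 of them in a row, and zone means of -0.71, -0.72 and -0.65. None of its single probes passed. glt1 had 19 of 23 probes below 0 in both immunoprecipitations and bfr1 13 of 18. By the deposited table the probes below 0 in both were 10 in ura1, 7 in bgs4, 8 in glt1 and 4 in bfr1, and those above 0 in both were 7, 8, 7 and 7, so these genes were not low throughout there.

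sir1 and rpb1 held fewer called probes than the 7 of ura1. Of 16 probes in sir1, 9 were below 0 in both immunoprecipitations and 1 above. sir1 had called probes at 531 bp from the start, and at 3758.5 and 4038.5 bp, within the last 1000 bp of its 4422 bp. The last 2 averaged -1.73 and -1.34. Replicate 4 stood apart at all 3, with -0.30, -0.08 and -0.11, whereas replicates 1 to 3 were between -3.39 and -1.30. rpb1 had called probes at 1198 and 2043.5 bp, and 8 of its 18 probes were below 0 in both immunoprecipitations and 5 above. The probe at 1198 bp had -2.10, -1.30, -2.11 and -1.25 on replicates 1 to 4, low on all arrays, and the deposited table also gave -1.06 there with an adjusted p of 0.00215.

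**Figure D4:**
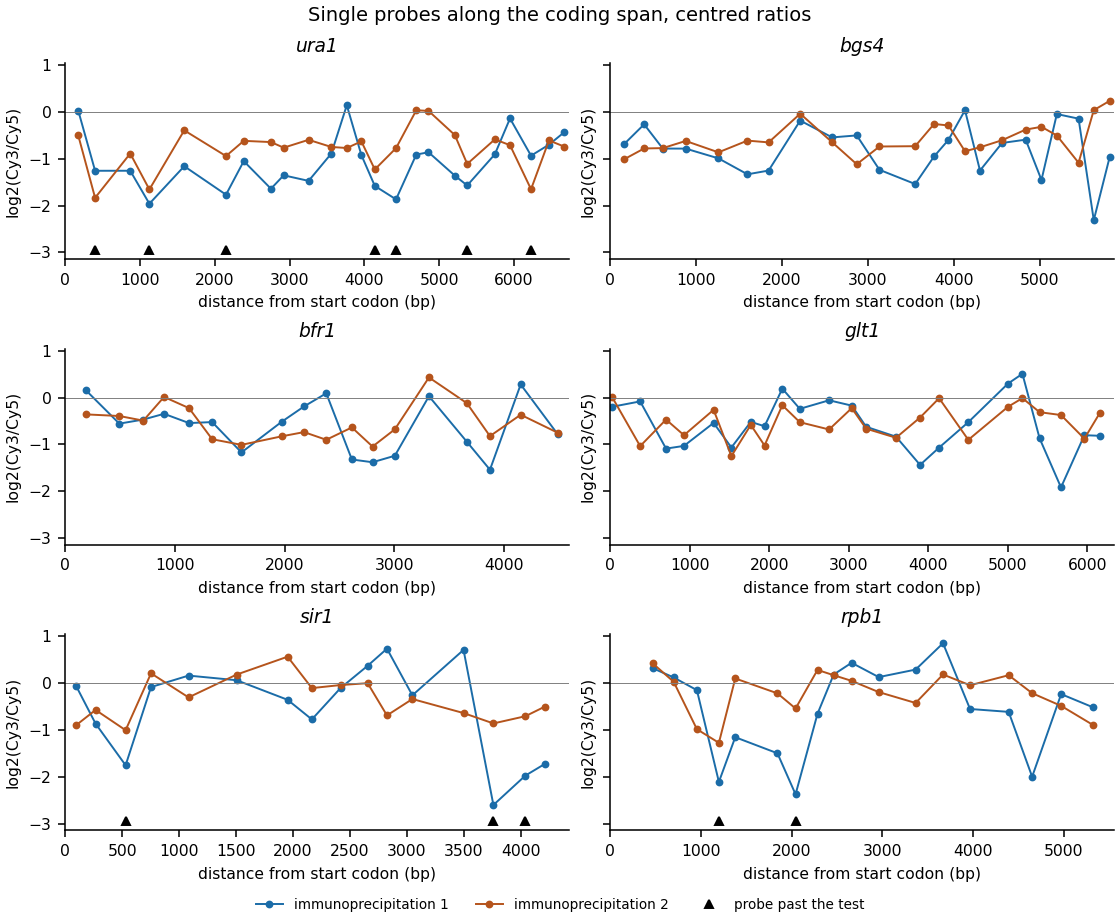
Probe values of ura1, bgs4, bfr1, glt1, sir1 and rpb1 as centred log2(Cy3/Cy5), by distance from the start codon in bp. Lines are the 2 immunoprecipitations, each the mean of its duplicate arrays, and triangles at the bottom mark probes past the test. ura1 has 7 such probes spread over its 6735 bp, whereas sir1 has 3, near its ends.

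Within a gene, the pattern from probe to probe was only weakly alike between immunoprecipitations in the centred ratios. Probe values less their gene mean correlated at r = 0.16 over 3357 probes, and at 0.53 in the deposited table. The median SD of the probes within a gene was 0.42, and the SD between the whole-span values of genes was 0.20. Whole-span values are means over a median of 15 probes, which lowers their noise. Their r and SD therefore cannot be compared directly with those of single probes.

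The first 1000 bp minus the last 1000 bp asked whether the signal leaned to either end. By limma 0 of 198 long genes passed in either direction, with a background of 0.0% over 892 genes of at least 2000 bp. At an unadjusted p under 0.05 the counts were 11 genes higher and 8 lower at the start, or 5.56% and 4.04%, against 6.28% and 2.8% of the 892 genes. The median difference was 0.00, with 48 genes above 0 and 54 below 0 in both immunoprecipitations. The nearest to the threshold was trs130, a subunit of the TRAPP complex in vesicle traffic, with 2.51, 0.48, 1.12 and 0.42 on replicates 1 to 4. Its mean was 1.16 ± 1.00 (SD, n = 2) with an adjusted p of 0.0797, and all arrays were above 0 with replicate 1 highest. The p of trs130 in limma rests on a spread pooled over all genes tested and not on its own SD. peg1, a microtubule-binding protein of the CLASP family, followed with 1.16, 1.92, 1.34 and 0.17. At the other end vps1302, a lipid transfer protein, had -0.83, -0.33, -1.36 and -0.90, and gpt1 had -1.60, -0.02, -1.29 and -0.64. Further genes with differences of at least 0.68 were nup189 and nup124 (nuclear pore), urb2 (ribosome biogenesis), myo52, tor2 (the TORC1 kinase), SPAC18B11.11, fft2 (a chromatin remodeller) and rpb1. Those of -0.58 or lower were gcn2 (a stress kinase of translation), for3 (a formin), cek1 (a kinase), atg2 (autophagy), myp2 (a myosin), rad3 (the ATR-like checkpoint kinase), cdc12 (a formin) and nup186 (nuclear pore).

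In the deposited table the same difference passed in 11 of 199 genes as higher at the start, where the background was 5.91%, and in 15 as lower, where it was 6.47%. The shares of long genes, 5.53% and 7.54%, were near these backgrounds. clu1, whose relatives help position mitochondria, had 0.80, 1.36, 1.48 and 0.75 on replicates 1 to 4, with an adjusted p of 4.09e-05. for3 had -1.41, -1.59, -1.13 and -0.22, with an adjusted p of 4.1e-05, and its centred ratios gave -0.76. tra1 had 1.44, 0.65, 1.15 and 0.78, fft2 0.59, 1.07, 1.47 and 0.93, and eis1, of the eisosome, -1.21, -1.19, -0.91 and -0.82. In these 5 genes all arrays lay on 1 side of 0 in that table. vps1302 passed there too, at -0.88 with an adjusted p of 0.00113, and trs130 at 0.68 with 0.0178. Across genes the difference correlated at r = 0.44 between the 2 scalings, and at 0.15 between immunoprecipitations for centred ratios against 0.60 in the deposited table. glt1 and snf22 (a SWI/SNF remodeller) had opposite signs in the 2 scalings, 0.20 and -0.90 for glt1 and -0.50 and 0.93 for snf22.

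**Figure D5:**
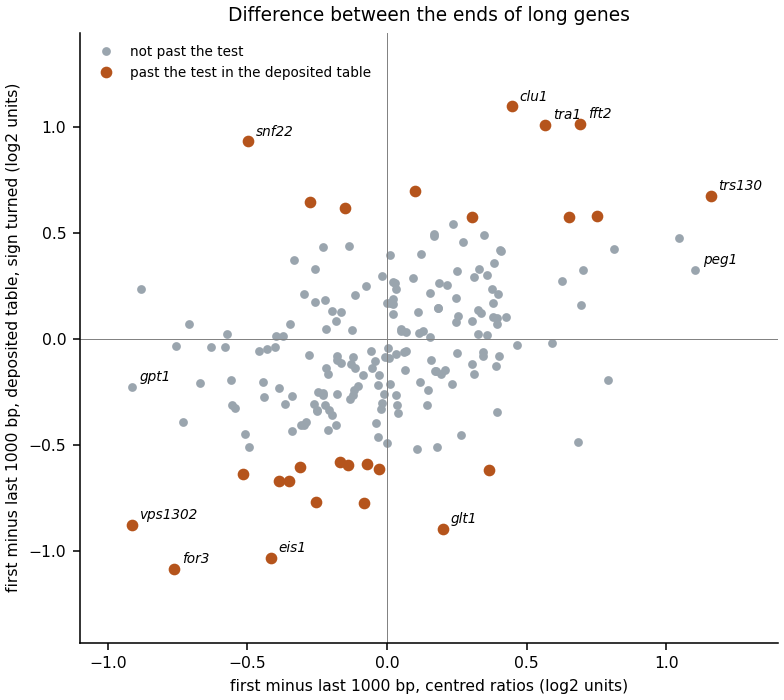
First minus last 1000 bp of 198 long genes, centred ratios on the x axis and deposited table with its sign turned on the y axis, in log2 units, each the mean of both immunoprecipitations. Orange points passed limma in the deposited table and grey points did not. The points scatter around 0 in both directions (r = 0.44), and glt1 and snf22 lie in opposite-sign quadrants.

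Set against the middle, 0 of 196 genes passed for the first 1000 bp and 0 of 197 for the last 1000 bp in limma, with backgrounds of 0.0%. At an unadjusted p under 0.05, 2 genes were higher and 6 lower in the first than in the middle, or 1.02% and 3.06%, against 4.01% and 3.4% of all genes tested. In the last 1000 bp 2 were higher and 7 lower, or 1.02% and 3.55%, against 2.77% and 5.54%. The largest for the first 1000 bp were nup189 at 0.86, with 2.12, 0.50, 0.68 and 0.09 on replicates 1 to 4, and vps1302 at -0.93, with -1.40, -0.62, -0.70 and -0.84. nup189 was highest on replicate 1, and vps1302 was below 0 on all arrays. gsf2 and nup124 were at 0.75 and 0.60, gcn1 (which acts with the kinase Gcn2) and cwf11 at 0.53 and 0.52, and sec8 (of the exocyst), gpt1, for3 and cdc12 between -0.79 and -0.63. For the last 1000 bp, sir1 was at -0.98, with -1.73, -0.88, -1.03 and -0.29, and mus7, a replication repair protein, at -1.11 with no value on replicate 1 and -0.36, -1.73 and -0.62 on replicates 2 to 4. trs130, alp1 (a folding factor for tubulin) and urb2 followed at -0.86, -0.81 and -0.73. tcb1 (a membrane tether), rad3, gde1 and nuc1 lay between 0.50 and 0.64 at the top. From the deposited table, 7 genes passed as higher and 13 as lower in the first 1000 bp than in the middle, with backgrounds of 3.68% and 8.59%. For the last 1000 bp 4 passed as higher and 15 as lower, with backgrounds of 4.0% and 8.92%. vps1302 at -0.87, nup189 at 0.70 and sir1 at -0.61 were among these.

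The 5 longest members had whole-span means of 0.03 to 0.20. sib1, at 15005 bp, had 54 probes and 0.19, 0.23, -0.04 and -0.04 on replicates 1 to 4. mdn1, midasin of ribosome assembly, had 53 probes over 14154 bp and a mean of 0.03 ± 0.07. SPBPJ4664.02, a glycoprotein of 11916 bp, had only 8 probes and 0.20 ± 0.31. tra2 and tra1, at 11029 and 10986 bp, had 0.11 ± 0.14 and 0.09 ± 0.03 (SD, n = 2 for each). The share of genes that passed as higher in Cy5 is given by length, with no test of the difference. It was 2.47% of 81 genes of at least 4500 bp, 0.0% of 118 genes from 3500 bp up to that length, 2.0% of 699 genes from 2000 bp up to 3500 bp, 4.57% of 1773 genes from 1000 bp up to 2000 bp and 6.12% of 1177 genes under 1000 bp. The SD between genes was 0.23, 0.18, 0.27, 0.38 and 0.42 in the same order, and the median number of probes 20, 13, 9, 5 and 3. The part of the number of probes in these shares was not tested.

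At the length limit, the mean centred ratios of the 3 genes just inside were above 0 and those of the 3 just outside below it. Just inside it were ubp2 (3510 bp, a ubiquitin hydrolase) at 0.09, cut14 (3519 bp) at 0.29 and prp16 (3522 bp) at 0.36. Just outside were rpc2 (3498 bp, RNA polymerase III) at -0.04, srb8 (3491 bp, the Mediator subunit Med12) at -0.09 and arg4 (3483 bp, an enzyme of arginine synthesis) at -0.65. Single arrays crossed 0 in ubp2, at -0.25 on replicate 2, and in arg4, at 0.01 on replicate 1. They also did in rpc2, at 0.05 and 0.04 on replicates 1 and 4, and in srb8, at 0.43 and 0.04 on replicates 3 and 4. None of these genes passed in limma. The deposited table gave 0.43, 0.16 and 0.33 inside and 0.32, 0.07 and -0.04 outside.

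From the deposited table, 1 long gene passed over its whole span as higher in Cy3, where the background was 1.01%, and 0 as higher in Cy5, where it was 1.6%. At an unadjusted p under 0.05 limma gave 29 and 0 there, or 14.6% and 0.0%, against 15.9% and 10.5% of all coding genes. The gene was tlh1, a helicase gene at the end of chromosome I, which was picked out after its values were seen. It had 2.64, 1.64, 1.82 and 0.89 on replicates 1 to 4 of that table, a mean of 1.75 ± 0.68 (SD, n = 2) with an adjusted p of 0.018. Its centred ratios were 0.15, -0.18, -0.03 and -0.41, with a mean of -0.12. It stood 1.92 above the median probe in brightness, more than any of the 24 genes at either end, and its close copies make the assignment of its signal uncertain. In the first 100000 bp of chromosome I, where tlh1 lies, probe brightness followed the GC content of the assembly best at a shift of -10000 bp, with r = 0.708 against 0.444 unshifted. The place of its probes is therefore uncertain as well.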

How the data were processed

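The authors deposited scanner files with spot intensity values for Cy3 and Cy5, mean foreground signals without normalization per the file headers. Per the file headers the same files hold the percent of pixels above background and saturated, the fraction of pixel variance shared by both channels, and a flag score per spot. The authors also deposited a table of log2 ratios, and its scale, centring and direction are not stated. Against the scanner values it ran as log2 of Cy5 over Cy3 after loess, so its sign was turned here. How the table was made is not given in these sources. These scanner files are not of Agilent's own format, so the processed signals that the design assumed were replaced by foreground means.

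Spots flagged as poor were removed. Flagged spots with saturated pixels were kept if their squared pixel correlation was over 0.3. The value was log2(Cy3/Cy5) centred on the array's median nuclear probe, with no background step. A probe was called well above background at 50% of its pixels, which held for 80.3 to 97.8% of probes in Cy5 and at least 99.6% in Cy3. The number of arrays limits the precision.

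The array files name no build. Probe brightness was set against the GC content of ASM294v3 in windows of 100000 bp. In 107 windows r was 0.248 to 0.508 unshifted, the median best shift was -40 bp, and the best shift was within 50 bp in 72. The first window of chromosome I, kept in use, had its best shift at -10000 bp. In 19 windows of chromosome I from 3.7 Mb the median best shift was 6100 bp, so genes there were left out.

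Duplicate arrays were averaged, and limma 3.58.1 (R 4.3.3, lmFit and eBayes, two-sided against 0) was fitted over all genes or probes with Benjamini-Hochberg adjustment. It was tested on simulated data with independent normal noise of a common spread and no dependence on brightness. That test therefore does not cover the dependence on brightness seen in these arrays. Windows needed 2 probes. Nothing states that the immunoprecipitations came from separate cultures, so p-values measure the spread between these samples only. For centred ratios of single probes, first minus last and first minus middle, limma pooled the spread fully over all genes or probes tested. Those p-values therefore do not rest on the spread of the single gene or probe. For whole spans and last minus middle the spread was pooled in part. Alternatives were loess, normexp with an offset of 50, loess with GC correction, the deposited table, probe filters, centring on the mode, other windows and lengths, and leaving out each array.

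The text names, among genes with at least 8 probes, the 12 lowest and highest whole-span means, the 10 at each end of first minus last, the 5 at each end of the differences from the middle, the 5 longest members, each list's extremes and called members, and the 3 genes on each side of the length limit. These are 76 members, of which 1 is not reported here, and other list members and genes called in the deposited table were added after their values were seen. The members and the 17 gene lists, which hold 116 members, were chosen with earlier results of these data known.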

Additional observations from a re-analysis of the deposited data

Results flagged for a closer look

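Among the 76 named genes, 5 had 1 of the 4 arrays far from the other 3 in the whole-span value, by Dixon's criterion at 95%. Chance alone flags about 1 in 20 groups. ags1 had -0.39 on replicate 1, where the others lay between -0.63 and -0.60. hrp1, a CHD family remodeller, had 0.52 on replicate 1 and 0.10 to 0.13 on the others. mdn1 had 0.20 on replicate 3 and -0.03 to 0.00 on the others. tor2 had -0.066 on replicate 2 and 0.14 to 0.15 on the others. tra1 had 0.18 on replicate 1 and 0.06 to 0.08 on the others. Replicate 1 is the array with the most spots removed, and its part in the 3 genes it stands apart in was not tested.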

How the results depend on the processing

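The 2 whole-span calls, ura1 and bgs4, held with only probes well above background, with centring on the mode and with more probes required. The count higher in Cy5 was 0 with loess, normexp, loess plus GC and the deposited table, 1 with all spots kept, 6 with more probes required, and 0 to 1 with each replicate left out: 1 without replicate 1, 2 or 4 and 0 without replicate 3. The count higher in Cy3, 0 as reported, was 1 with loess, 8 with loess plus GC and 1 in the deposited table, and 0 with each replicate left out. Of all 3848 genes, 99 passed as higher in Cy3 with loess and 308 with loess plus GC. Higher in Cy5 they were 117 with loess, 323 with loess plus GC and 89 with normexp. With all spots kept 158 of 3864 genes passed as higher in Cy5. Without replicates 1 to 4 it was 161 of 3807, 151 of 3846, 124 of 3701 and 107 of 3814. For ura1 the value was -0.09 with loess, -1.05 with normexp, -0.11 with loess plus GC and -0.07 in the deposited table. For bgs4 it was -0.10, -0.82, -0.10 and -0.08, and -0.77 with all spots kept.

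For first minus last, 0 calls as reported became 1 higher in Cy3 with normexp, 11 in the deposited table and 0 to 1 with each replicate left out (1 without replicate 4), and 15 higher in Cy5 in the deposited table. Over all genes normexp gave 4 higher in Cy3 and 1 higher in Cy5. Without replicate 4 all 883 genes gave 2 and 0. For first minus middle the counts higher in Cy3 were 6 with loess, 5 with loess plus GC and 7 in the deposited table, and those higher in Cy5 were 9, 8 and 13. For last minus middle they were 8, 5 and 4 higher in Cy3 and 17, 15 and 15 higher in Cy5, with 1 under normexp, 2 with more probes required and 1 with windows of 500 bp. Over all genes tested, loess and loess plus GC gave 10 and 10 higher in Cy3 and 22 and 20 higher in Cy5 for first minus middle (of 324), and 20 and 15 higher in Cy3 and 36 and 30 higher in Cy5 for last minus middle (of 325). For last minus middle, normexp gave 2 higher in Cy3 and 2 higher in Cy5 of 325. More probes required gave 2 and 2 of 307, and windows of 500 bp 0 and 6 of 1115.

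Probe counts moved most. Higher in Cy3, in the first 1000 bp, the middle and the last 1000 bp, they were 36, 134 and 51 with loess, 35, 131 and 47 with loess plus GC, 48, 169 and 58 in the deposited table, and 2, 3 and 2 with all spots kept. Normexp gave 1 in the middle, and only probes well above background 1 in the middle and 2 in the last 1000 bp. Higher in Cy5 they were 37, 49 and 19 with loess, 42, 55 and 20 with loess plus GC, 35, 54 and 18 in the deposited table, 0, 1 and 1 with normexp, 8, 26 and 12 with all spots kept and 9, 29 and 15 with centring on the mode. Only probes well above background gave 21 in the middle and 11 in the last 1000 bp. With each replicate left out they were 0 to 2, 0 to 2 and 0 higher in Cy3, and 0 to 3, 1 to 13 and 1 to 4 higher in Cy5. Over all 41171 probes, loess gave 1815 higher in Cy3 and 3231 higher in Cy5, and loess plus GC 1860 and 3311. Normexp gave 45 and 421 there, and centring on the mode 35 and 1408. All spots kept gave 177 and 1362 of 42641, and only probes well above background 76 and 1167 of 29243. Without replicates 1 to 4, all 39164, 40979, 35657 and 39487 probes gave 89, 42, 0 and 24 higher in Cy3. Higher in Cy5 they gave 780, 588, 273 and 627. Counts in long genes were lowest in Cy5 without replicate 3, at 0, 1 and 1, and were 0, 6 and 4 without replicate 2, 3, 4 and 2 without replicate 4 and 3, 13 and 4 without replicate 1.

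Several single genes turned sign. Whole-span values with loess plus GC were 0.37 for cts2 and 0.44 for gsf2. First minus last in the deposited table was -0.90 for glt1 and -0.62 for cts2. First minus middle of cts2 was -0.94 with loess, -0.91 with loess plus GC and -0.94 in the deposited table, where tcb1 had -0.54. Last minus middle of gsf2 was -0.64, -0.60 and -0.65 under the same settings. The cause was not tested. The whole-span median was -0.13 with centring on the mode and 0.10 in the deposited table, against 0.00 as reported. No paired analysis was possible because the arrays form 1 group.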
